A study of Rattus norvegicus with 6 samples.

Results

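Iron and metal handling was followed through 10 genes in normal and fibrotic rat liver: Hamp, Tfrc, Tfr2, Slc40a1, Fth1, Ftl1, Hfe, Bmp6, Slc11a2 and Mt1. They were chosen by name for their roles, and their probes were found by matching the transcript record given for each probe to the RefSeq gene table. All 10 genes were on the array, with 15 probes, out of 15443 genes and 18355 probes that could be named. Of the 15 probes, 13 probes of 9 genes were bright enough to be tested. The probe of Bmp6 and the second probe of Tfrc were not.

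RNA came from liver tissue blocks of 6 rats, with 1 single-colour Agilent array per animal. Fibrosis had been brought on in 3 of the rats by ligating the bile duct, which stops bile from draining and leads to scarring, and the other 3 rats were normal. Strain, sex, age, time after ligation and whether the normal rats had a sham operation are not given in the sources used here. The comparison asks how transcript levels in the fibrotic liver differed from those in normal liver.

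The liver sets the iron supply of the body. Hepatocytes make hepcidin, the product of Hamp, a hormone that binds the iron exporter ferroportin (Slc40a1) on gut and macrophage cells and causes its breakdown, so that less iron enters the plasma. Hepcidin is raised by iron through BMP ligands such as Bmp6, read by BMP receptors with hemojuvelin (Hjv), Hfe and transferrin receptor 2 (Tfr2), and by inflammation through interleukin 6 and STAT3. Inside cells iron is taken up through transferrin receptor 1 (Tfrc) and the divalent metal carrier Slc11a2, and is stored in ferritin, a shell of heavy (Fth1) and light (Ftl1) chains. Metallothionein 1 (Mt1) binds zinc and copper and is switched on by metals.

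The promoters of Hamp and Mt1 are shown because they carry letters that match known control elements of these genes. The 250 bases before the start of Hamp lie at chr1:95300272-95300521 on the minus strand of RefSeq's GRCr8 assembly. Capitals mark the core of the BMP-responsive element (GGCGCC) at -129 to -124. They also mark a match to the palindromic STAT motif (TTCNNNGAA) at -117 to -109. Positions are counted back from the transcript start. The same window of Mt1 lies at chr19:10832976-10833225, also on the minus strand. Its capitals mark 6 matches to the metal response element core, 3 of them to TGCACNC and 3 to TGCGCNC.

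Hamp: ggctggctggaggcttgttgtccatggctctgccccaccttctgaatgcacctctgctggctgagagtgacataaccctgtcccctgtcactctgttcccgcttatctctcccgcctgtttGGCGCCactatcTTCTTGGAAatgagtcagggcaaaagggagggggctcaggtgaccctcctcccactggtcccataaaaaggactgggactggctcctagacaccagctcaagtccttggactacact
Mt1: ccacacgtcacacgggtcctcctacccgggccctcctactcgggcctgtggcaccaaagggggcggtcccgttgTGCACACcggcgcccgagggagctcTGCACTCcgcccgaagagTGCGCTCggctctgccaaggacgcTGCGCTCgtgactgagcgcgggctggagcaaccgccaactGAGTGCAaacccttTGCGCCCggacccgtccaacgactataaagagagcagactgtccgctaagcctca

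Both strands were searched in 33469 promoters of the same length. GGCGCC stood in 8.69% of them, TTCNNNGAA in 7.67%, and both in 0.379%. TGCACNC stood in 10.3% and TGCGCNC in 11.8%, and 25 promoters (0.0747%) held 5 or more of these cores. Tfrc also held GGCGCC, at -118 to -113, and 3 matches to TGCGCNC, of which a pair overlap each other. Mt1 held GGCGCC at -168 to -163, which is not in capitals. These matches describe letters in the window and are not measurements of binding. The table held this window for 7 of the 10 genes, and Fth1, Ftl1 and Hfe were the others.

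Values below are log2 processed signals minus the 75th percentile of their array, so 0 is the level of that percentile. They compare a probe with itself across arrays, and levels of different probes are not comparable. A gene was called when limma's adjusted p, taken over all 19731 tested probes, was under 0.05. Errors beside a mean are SDs over 3 arrays, and errors beside a difference (fibrosis minus normal) are standard errors. The p-values set each difference against the spread between these rats, which limma adjusts for each probe with the spread of all tested probes. The number of arrays limits every value. Arrays carry replicate numbers as names with no order.

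The 6 arrays differed in brightness, and this bears on every small difference. The 75th percentile of the processed signal ran from 3755 to 4386 on the normal arrays and from 4840 to 6401 on the fibrosis arrays. The fibrotic livers varied more, with a median SD per probe of 0.42 against 0.23 in normal liver. Cell type markers showed the makeup of the blocks. All 7 tested markers of cholangiocytes, the cells of bile ducts, rose (Krt7 was bright enough to be tested only through the fibrosis arrays), with a mean level of -4.67 to -4.22 in normal liver and 0.09 to 0.36 in fibrosis. Of 8 markers of the scar-forming stellate cells and myofibroblasts, 5 rose (levels of -2.15 to -1.56 and of -0.30 to 0.62). Of 4 neutrophil markers 3 rose, Lcn2 among them. Hepatocyte markers, all 8 well above background, had a mean level of 2.29 to 2.67 in normal liver and 1.66 to 1.92 in fibrosis. Of these 8, 0 were called by limma and 4 were lower at an unadjusted p under 0.05. Of all 10864 named genes tested, limma put 1882 lower and 2307 higher at that unadjusted level. Every such count below is to be read beside these. In such tissue blocks, fewer cells of a type and less RNA per cell cannot be told apart.

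Hamp and Ftl1, the hormone and the light chain of ferritin, fell in fibrosis, and no gene of the 10 rose past the test. Of the 9 genes tested, 2 were lower and 0 higher (unadjusted p under 0.05: 3 lower, 1 higher). At that unadjusted level 1882 of the 10864 named genes tested were lower and 2307 higher. Over all named genes tested, limma called 8.33% lower, 15.4% higher and 23.8% in either direction, so 2 of 9 is close to the general share. Counted over probes, the shares were 6.79% lower and 12.4% higher, 19.1% in all. Groups did not overlap for 6 of the 9 genes, 2 higher and 4 lower in fibrosis, against 45.2% of named genes and 38.4% of probes (19.1% higher, 19.3% lower). The median difference of the 9 genes was -0.68, and that of all named genes was -0.07.

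**Figure D1:**
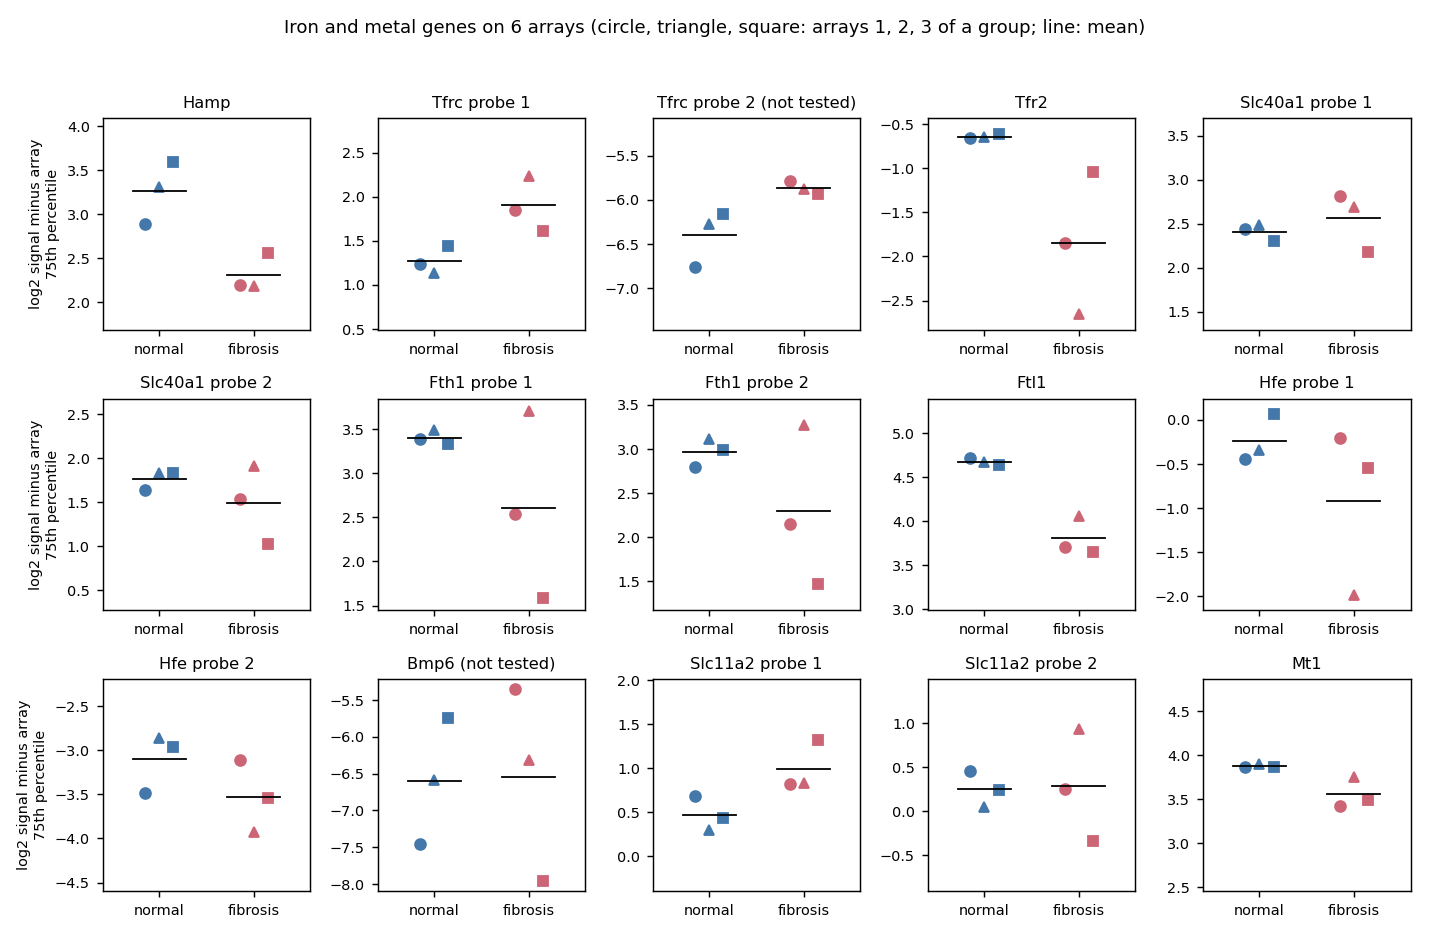
Scaled log2 signal of each probe of the 10 genes on every array (vertical axes, log2 signal minus the 75th percentile of the array), with a circle, triangle and square for arrays 1, 2 and 3 of each group and a line at the group's mean. Hamp and Ftl1 lie lower on all fibrosis arrays, and the fibrosis arrays of Fth1 spread from 1.59 to 3.70 on its brighter probe.

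Hamp encodes hepcidin, the hormone that shuts ferroportin. Its probe, spotted 10 times on each array, read 2.89, 3.31 and 3.59 in the 3 normal livers and 2.19, 2.19 and 2.57 in the fibrotic ones. Every fibrotic liver was below every normal one. The means were 3.26 ± 0.35 (SD, n = 3) and 2.32 ± 0.22 (SD, n = 3), a difference of -0.95 ± 0.27 (95% interval -1.57 to -0.33, limma adjusted p = 0.0432) or 1.93-fold lower. Before scaling, the signals were 29012, 43595 and 45150 against 29266, 22037 and 30318, so normal array 1 and fibrosis array 1 were alike in raw brightness. Hepatocyte markers also had a lower mean level on each fibrosis array, and their part in the Hamp result was not tested.

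The direction of Hamp held in all 19 alternatives, from -1.30 to -0.56, and the call held in 9, with adjusted p from 0.00309 to 0.316. It was lost with quantile normalization (-0.58, adjusted p = 0.210), cyclic loess (-0.56, 0.224) and scaling to E1A control probes (-0.60, 0.316). It was also lost without normal array 2 (-0.92, 0.145), normal array 3 (-0.79, 0.195), fibrosis array 1 (-0.89, 0.111) or fibrosis array 2 (-0.89, 0.0785). The normal arrays shared a row of the slide with fibrosis array 1, and within that row the difference was -1.07 (0.199 with the row as a term), while the other row held fibrosis arrays alone. The scanner software had marked 59 of the 60 Hamp spots as uneven or outlying, and these were kept. Hamp could not be tested with marked spots left out.

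The BMP ligand Bmp6, which signals iron load to hepatocytes, was dim. It read -7.46, -6.59 and -5.74 in normal liver and -5.35, -6.32 and -7.96 in fibrosis, with overlapping groups. It was well above background on 1 of 3 arrays in each group and was not tested. In the liver Bmp6 comes mainly from sinusoidal endothelium, and the markers of that cell type had a mean level of 0.52 to 0.80 in normal liver and 0.14 to 0.59 in fibrosis, with 0 of 5 called by limma (1 lower at an unadjusted p under 0.05).

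Of the iron sensors, Tfr2 had lower values in each fibrotic liver but missed the threshold. Tfr2 binds iron-loaded transferrin on hepatocytes and feeds into hepcidin control. It read -0.66, -0.65 and -0.62 in normal liver and -1.85, -2.65 and -1.04 in fibrosis. The normal livers lay within a few hundredths of each other and the fibrotic ones were all lower but far apart. The difference was -1.21 ± 0.39 (95% interval -2.10 to -0.32, adjusted p = 0.0657). Without fibrosis array 3, the one nearest to normal, it was -1.61 (0.00939) and was called, as it was with the array median (-1.57, 0.0216). With quantile normalization and cyclic loess it just missed the threshold, at -1.36 (0.0539) and -1.22 (0.0649). Over its alternatives the adjusted p ran from 0.00223 to 0.325.

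Hfe, the membrane protein mutated in hereditary haemochromatosis, had no call on either probe. The brighter probe read -0.45, -0.34 and 0.07 in normal liver and -0.21, -1.99 and -0.55 in fibrosis, and fibrosis array 2 was far below the rest. Its difference was -0.68 ± 0.45 (adjusted p = 0.350) with overlapping groups. The dimmer probe read -3.49, -2.86 and -2.96 against -3.11, -3.93 and -3.54, a difference of -0.43 ± 0.30 (0.382), again with fibrosis array 2 lowest.

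Tfrc, the receptor that takes in transferrin-bound iron, was higher in each fibrotic liver without passing the test. Its bright probe read 1.24, 1.14 and 1.44 in normal liver and 1.85, 2.24 and 1.61 in fibrosis. The groups did not overlap, and fibrosis array 3 was nearest to normal. The difference was 0.63 ± 0.26 (95% interval 0.04 to 1.22, adjusted p = 0.132). Tfrc passed with quantile normalization (0.85, 0.0436) and cyclic loess (0.89, 0.0377), with an adjusted p between 0.0356 and 0.481 over its alternatives. The second probe was untested and dim, at -6.76, -6.27 and -6.16 against -5.79, -5.88 and -5.93, and was well above background on 2 of 3 arrays in each group.

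Slc11a2 brings iron across the cell or endosome membrane. One of its probes read 0.69, 0.29 and 0.44 in normal liver and 0.83, 0.83 and 1.32 in fibrosis, with every fibrotic liver above every normal one. That difference was 0.52 ± 0.26 (adjusted p = 0.203). The other probe read 0.46, 0.05 and 0.23 against 0.25, 0.93 and -0.34, where the groups overlapped and the difference was 0.03 ± 0.34 (0.960), or -0.32 with the array median. Its probes therefore did not behave alike, and the sequences of the probes were not used here.

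The exporter Slc40a1 (ferroportin) had no call on either probe, and the probes had opposite signs that turned with the scaling (the first to -0.20 with the array median, the second to 0.071 with E1A probes). The first read 2.44, 2.48 and 2.30 in normal liver and 2.81, 2.69 and 2.18 in fibrosis, a difference of 0.15 ± 0.26 (95% interval -0.44 to 0.74, adjusted p = 0.729). The second read 1.64, 1.83 and 1.83 against 1.53, 1.91 and 1.03, a difference of -0.27 ± 0.28 (-0.92 to 0.37, 0.552). Groups overlapped on both, and fibrosis array 3 was lowest on both. Markers of Kupffer cells and macrophages, which carry much of the liver's ferroportin, had a mean level of 0.25 to 0.87 in normal liver and 0.85 to 1.29 in fibrosis, with 0 of 8 called by limma (2 higher at an unadjusted p under 0.05). Their part in the values of Slc40a1 was not tested.

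Of the light and heavy chains of ferritin, which store iron, only the light chain was called. In fibrosis both had array 2 highest and array 3 lowest, and no test compared the chains. Ftl1, the light chain, read 4.72, 4.67 and 4.64 in normal liver and 3.71, 4.06 and 3.65 in fibrosis. All fibrotic livers were lower, with means of 4.68 ± 0.04 (SD, n = 3) and 3.81 ± 0.22 (SD, n = 3). Ftl1 fell by 0.87 on the log2 scale (SE 0.23, 95% interval -1.40 to -0.34, limma adjusted p = 0.0336), or 1.83-fold. Hepatocyte markers were lower on the same arrays and their part in the Ftl1 result was not tested.

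The direction of Ftl1 held in all 20 alternatives, from -1.22 to -0.32, and the call held in 9, with adjusted p from 0.00278 to 0.354. It was lost with quantile normalization (-0.36, 0.307), cyclic loess (-0.32, 0.354), E1A scaling (-0.52, 0.267) and with the marked spots left out (-0.86, 0.0778). It was also lost without normal array 1 (-0.85, 0.111), normal array 2 (-0.87, 0.120), normal array 3 (-0.89, 0.128) or fibrosis array 1 (-0.82, 0.0886). Within the shared slide row it stood at -0.96 (0.178 with the row as a term). Ferritin genes have near-identical copies in the genome, and how much they add to these probes was not tested.

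Fth1, the heavy chain that oxidises iron for storage, ran across the fibrotic livers without a common direction. Its brighter probe read 3.39, 3.49 and 3.33 in normal liver and 2.54, 3.70 and 1.59 in fibrosis. Fibrosis array 2 lay above all normal arrays and the other fibrosis arrays below them. The difference was -0.79 ± 0.48 (adjusted p = 0.300). Its other probe read 2.79, 3.12 and 2.98 against 2.15, 3.27 and 1.47, a difference of -0.67 ± 0.43 (0.332), with the same order of the fibrosis arrays. Without fibrosis array 2 both were called, at -1.34 (0.0329) and -1.16 (0.0357).

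Mt1, which buffers zinc and copper, was not called, and the sign of its small difference depended on the scaling. It read 3.86, 3.90 and 3.87 in normal liver and 3.42, 3.75 and 3.49 in fibrosis, with no overlap. The difference was -0.32 ± 0.23 (95% interval -0.84 to 0.20, adjusted p = 0.373). Its sign turned with quantile normalization (0.15), cyclic loess (0.17) and E1A scaling (0.02), so it has no settled direction. Other metallothionein genes resemble Mt1 in sequence, and their part in this probe was not tested.

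**Figure D2:**
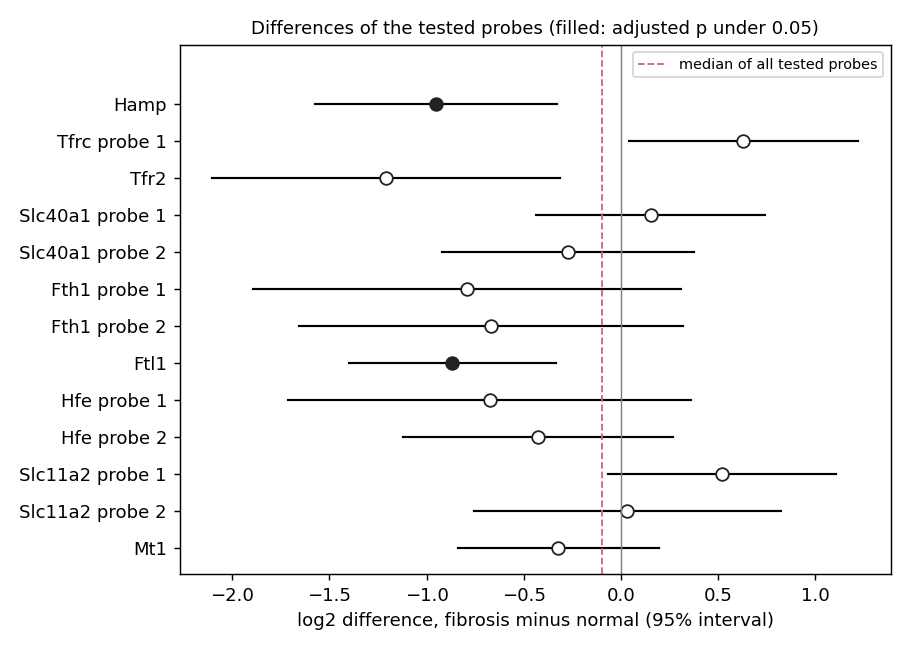
Difference between fibrosis and normal liver for each tested probe of the 10 genes (horizontal axis, log2 units, with the 95% interval as a bar), with called probes filled and the median of all tested probes as a dashed line. Hamp at -0.95 and Ftl1 at -0.87 are the filled points, and Tfr2 at -1.21 has a wider interval.

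The scaling of the arrays moved these differences. Quantile normalization brought Hamp and Ftl1 nearer to 0 and took Tfr2 (-1.36) and the dimmer probe of Hfe (-0.73) further from it. The median difference of all tested probes was -0.10 in the values given, and -0.45 with the array median, 0.25 with E1A probes and -0.02 with cyclic loess. Relative to that median, Hamp stood at -0.85 with the 75th percentile, at -0.47 with quantile normalization and at -0.54 with cyclic loess. Under quantile normalization and cyclic loess 1 gene of the 10 was higher (Tfrc) and 0 were lower, while with the array median and with normexp 3 were lower (Hamp, Ftl1 and Tfr2). With E1A scaling 0 were called by limma. These counts are to be read beside the calls over all 19731 probes in the same setting. Those were 2016 higher and 1417 lower with quantile normalization, and 2309 and 1109 with cyclic loess. They were 1890 and 3884 with the array median, 1913 and 1439 with normexp, and 2941 and 326 with E1A scaling.

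**Figure D3:**
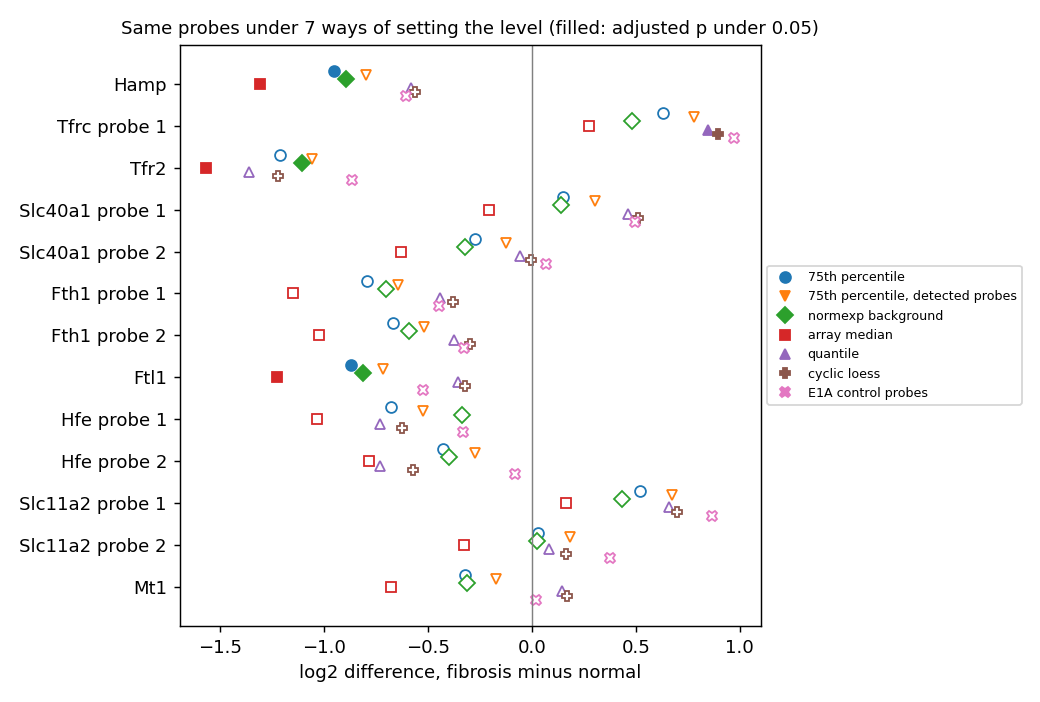
Difference of each tested probe (vertical axis by gene, horizontal axis in log2 units) under each scaling and background correction, with 1 point per setting and filled points where the probe was called. Hamp, Ftl1 and Tfr2 stay below 0 and Tfrc above 0 in every setting shown, and Mt1 lies on both sides of 0.

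The closest genes to Hamp across the 6 arrays, by Pearson's r, were Stk35, a kinase (r = 0.998), Tdo2, the liver enzyme that breaks down tryptophan (0.998), Mccc1 of leucine breakdown (0.995), Cct3, a chaperonin subunit (0.994), and Atp13a5 (0.991). These are the highest values among the named genes tested, the 6 arrays hold 2 groups that differ, and the values are a description with no test.

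The wider machinery of iron, haem, zinc and copper was read from 8 further gene lists. Of 98 genes, 83 were tested, of which 6 were higher and 10 lower, against 15.4% and 8.33% of named genes (unadjusted p under 0.05: 11 higher, 23 lower). At that unadjusted level 2307 of the 10864 named genes tested were higher and 1882 lower. The median difference of the 83 was -0.35, beside -0.07 over all named genes. The counts of each list below are to be read against the same shares, 15.4% higher and 8.33% lower. With the array median 4 were higher and 30 lower, and with E1A scaling 9 were higher and 1 lower. Over all 19731 probes tested, the array median gave 1890 higher and 3884 lower, and E1A scaling 2941 higher and 326 lower. The balance depended on the scaling in these lists as it did over all probes. Hepatocyte markers had a lower mean level on the fibrosis arrays, and their part in the lower values of these lists was not tested.

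Of 13 genes of the BMP and SMAD route to hepcidin, 2 rose and 2 fell (median -0.22). Bmp4, a BMP ligand, read -2.27, -2.87 and -3.23 in normal liver and -0.79, -0.33 and -0.57 in fibrosis. It rose by 2.22 ± 0.30 (adjusted p = 0.00184), 4.67-fold, and was called in all 19 alternatives. Id1, a direct target of BMP signalling, read -2.69, -2.30 and -2.51 against -1.26, -1.27 and -1.29. Id1 rose by 1.23 ± 0.23 (0.00755), and its call was lost only with the slide row as a term (1.25, 0.0902), among 20 alternatives.

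Hjv and Tmprss6 act at the same receptor complex, Hjv as a BMP co-receptor that raises hepcidin and Tmprss6 as the protease that cleaves it and lowers hepcidin. Both fell. Hjv read 2.16, 1.50 and 2.04 in normal liver and 0.29, 0.12 and 0.98 in fibrosis, a difference of -1.43 ± 0.32 (adjusted p = 0.0158). Hjv lost its call without normal array 1 (-1.30, 0.0643), normal array 3 (-1.36, 0.0757) or fibrosis array 1 (-1.35, 0.0529), and with E1A scaling (-1.09, 0.0915). Tmprss6 read 0.74, 0.53 and 0.33 against -0.55, -0.74 and -0.10, a difference of -0.99 ± 0.26 (0.0335). It was called in 9 of 19 alternatives. The call was lost with E1A scaling (-0.65, 0.273), without normal array 1, 2 or 3, and without fibrosis array 1 or 2, where the values ran from -1.10 to -0.85 and the adjusted p from 0.0660 to 0.122.

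Of 7 genes of the interleukin 6 route, 0 were called by limma (unadjusted p under 0.05: 1 higher, 1 lower; median -0.41). Stat3, which carries the interleukin 6 signal to the Hamp promoter, stood at 0.84 ± 0.25 (adjusted p = 0.0534). Creb3l3, a liver factor that acts on the same promoter, stood at -0.73 ± 0.24 (0.0695). Il6 was well above background on 0 of 3 normal and 2 of 3 fibrosis arrays and was not tested.

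Of 14 other iron carriers and reductases, 4 rose and 1 fell (median 0.09). Lcn2, lipocalin 2, which binds bacterial iron carriers, read -1.39, -1.38 and -2.17 in normal liver and 2.41, 3.30 and 2.55 in fibrosis. It rose by 4.40 ± 0.34 (adjusted p = 1.33e-04), 21.1-fold, and was called in all 19 alternatives. Lcn2 is also a neutrophil marker, and the part of neutrophils in its rise was not tested. Slc22a17, a receptor for lipocalin 2, changed by -0.89 ± 0.25 (adjusted p = 0.0417). That call did not hold without normal array 1, 2 or 3 or fibrosis array 2 or 3, at -0.97 to -0.80 with adjusted p from 0.0643 to 0.159, and with E1A scaling (-0.55, 0.396).

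Steap2 and Steap4 are metalloreductases that prepare iron and copper for uptake, and Heph is a ferroxidase that works beside ferroportin. Steap2 rose by 1.98 ± 0.41 (adjusted p = 0.0118) on its brighter probe, which was called in 18 of 20 alternatives. It missed the threshold when normal array 3 was left out (1.86, 0.0561). The fit that took slide row as a term put it at 2.19, also not called. The dimmer Steap2 probe was well above background on 0 arrays of either group, with means of -8.18 in normal liver and -7.93 in fibrosis. That probe was not tested. Steap4 rose by 1.38 ± 0.37 (0.0357) on its dimmer probe, with means of -5.57 in normal liver and -4.20 in fibrosis. Its brighter probe, with means of 0.92 and 1.71, stood at 0.79 (0.307) with overlapping groups. Heph rose by 1.21 ± 0.36 (0.0495). Steap4 lost its call without normal array 1, 2 or 3 or fibrosis array 1 or 2 (1.04 to 1.46, adjusted p from 0.0738 to 0.118). With normexp that probe stood at 0.72 (0.114). The call was also lost with quantile normalization, the array median, cyclic loess and no filter (adjusted p from 0.0531 to 0.0795). Heph lost its call without normal array 1 or 3 or fibrosis array 1 or 2 (0.95 to 1.14, adjusted p from 0.101 to 0.196). Heph also lost it with quantile normalization, the array median, cyclic loess and no filter (adjusted p from 0.0657 to 0.0924). With slide row as a term Heph stood at 1.45 (0.190), and it was called in 10 of 19 alternatives.

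Transferrin, the plasma iron carrier (Tf), was not called, at -1.07 ± 0.62 (0.278). It read 3.90, 3.78 and 3.70 in normal liver and 2.45, 4.28 and 1.46 in fibrosis, with fibrosis array 2 highest and array 3 lowest as for Fth1. Haptoglobin (Hp), which captures free haemoglobin, had the same order, at 5.03, 4.93 and 5.08 against 4.39, 5.41 and 3.73. The order is not particular to these genes. Ftl1 and the hepatocyte markers Alb and Ttr also had it, and the other hepatocyte markers did not. What lies behind it was not tested.

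The cytosolic sensors that bind iron-responsive elements were called lower, and the calls depended on the settings. Of 5 genes of cytosolic iron sensing and ferritin turnover, 2 were lower and 0 higher (median -0.35), against 8.33% and 15.4% of named genes. Aco1, iron regulatory protein 1, stood at -1.33 ± 0.36 (adjusted p = 0.0362) and Ireb2, iron regulatory protein 2, at -1.34 ± 0.31 (0.0182). These proteins bind ferritin and Tfrc transcripts when iron is low, holding back the first and protecting the second from decay. Aco1 lost its call without normal array 1, 2 or 3 or fibrosis array 2 or 3 (-1.52 to -0.99, adjusted p from 0.0556 to 0.133). Ireb2 lost it without normal array 1, 2 or 3 (-1.38 to -1.27, adjusted p from 0.0573 to 0.0794). With E1A scaling neither was called, at -0.99 (0.183) and -0.99 (0.105). Aco1 was also lost with quantile normalization (-1.15, 0.0851) and cyclic loess (-1.11, 0.0803). With slide row as a term Aco1 stood at -0.72 (0.443) and Ireb2 at -0.99 (0.259). Aco1 was called in 8 of 19 alternatives and Ireb2 in 14 of 19.

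Of 10 genes of haem scavenging, breakdown and export, 1 fell and 0 rose (median -0.10). Blvrb, a biliverdin reductase, changed by -1.03 ± 0.26 (adjusted p = 0.0280), and its other probe stood at -0.86 (0.0774). Abcg2, an exporter that also carries haem and porphyrins, stood at -0.82 ± 0.26 (0.0633). Cd163, the macrophage receptor for haemoglobin bound to haptoglobin, stood at 0.96 ± 0.31 (0.0681). Of 11 genes of haem synthesis and iron-sulfur assembly, 1 fell and 0 rose (median -0.42). Nfs1, which supplies sulfur for these clusters, fell by 1.05 (SE 0.24, 0.0172), and Fech, which inserts iron into haem, stood at -1.07 ± 0.37 (0.0801). Blvrb lost its call without normal array 1, 2 or 3 or fibrosis array 1 (-1.07 to -1.02, adjusted p from 0.0612 to 0.117), and Nfs1 without normal array 2 (-1.01, 0.0831) or 3 (-1.01, 0.0924). With E1A scaling neither passed, at -0.69 (0.278) and -0.71 (0.234). Erythroid markers had a mean level of 0.99 to 1.23 in normal liver and 0.14 to 1.07 in fibrosis. Of 6 tested, limma called 1 lower and 0 higher (unadjusted p under 0.05: 2 lower, 0 higher). One of these markers, Alas2, is also among the haem synthesis genes counted above.

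Of 14 zinc and metallothionein genes tested, 2 were lower and 0 higher (median -0.32). Slc30a10, a manganese exporter, stayed near background in all 3 fibrotic livers (none well above it). It stood at -2.49 ± 0.42 (limma adjusted p = 0.00520), and was 5.05-fold lower with a floor under the fibrosis values. Its probe was bright enough to be tested only through the normal arrays, so a lower value followed from the filter, and it was not tested with the filter on all 6 arrays. With normexp background correction its value was -1.10 on the log2 scale, a smaller fall, so 5.05-fold is not a lower bound. For the floor, each fibrosis value was raised to the dimmest signal that counted as well above background on its array, where it lay below that. Slc30a1, the zinc exporter of the cell surface, fell by 1.09 on the log2 scale (SE 0.24, 0.0156). Of 9 copper genes, 1 fell and 0 rose (median -0.40). Sod1, the copper and zinc superoxide dismutase, fell by 0.80 (SE 0.23, 0.0426), and Slc31a1, the copper importer, stood at -0.83 ± 0.26 (0.0577). Slc30a1 lost its call without normal array 1, 2 or 3 (-1.18 to -1.02, adjusted p from 0.0552 to 0.0710) and Sod1 without any 1 of the 6 arrays (-0.87 to -0.70, adjusted p from 0.0542 to 0.156). With E1A scaling neither passed, at -0.75 (0.161) and -0.45 (0.415).

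**Figure D4:**
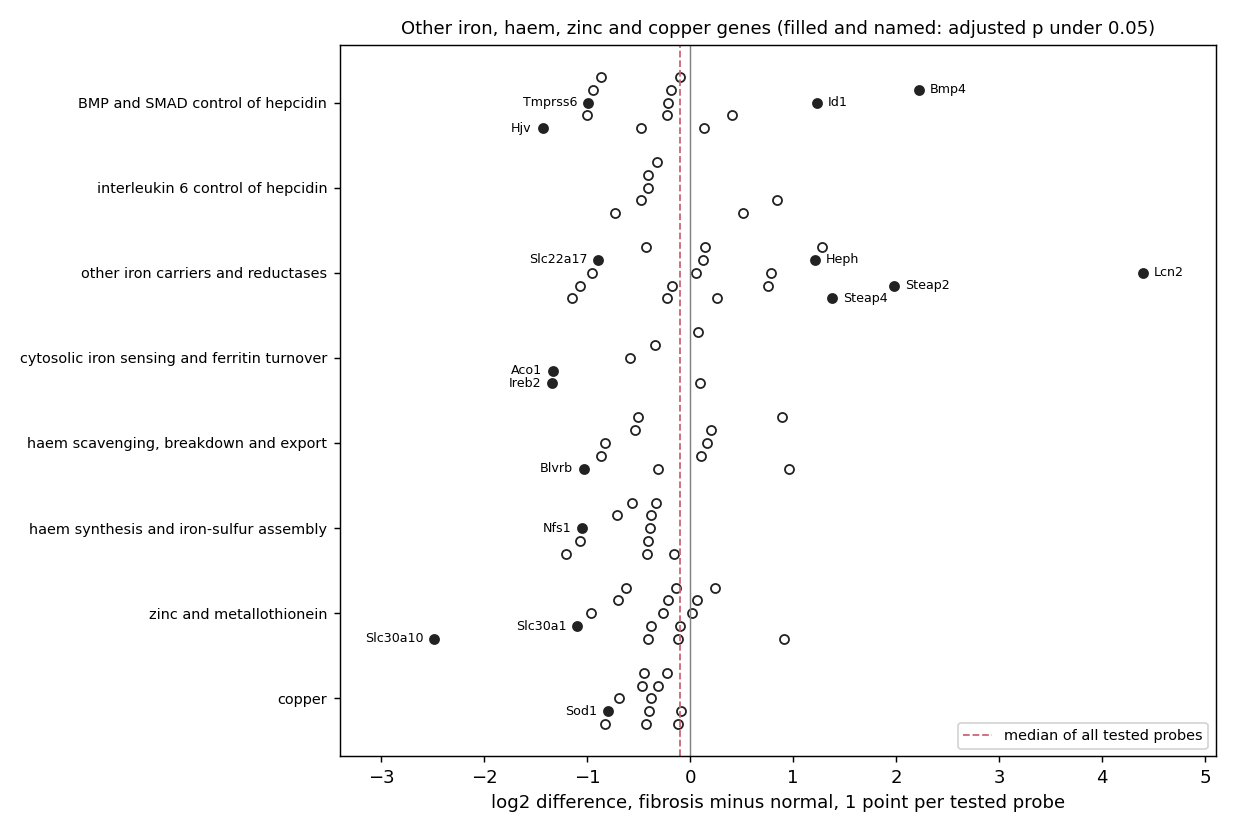
Difference between fibrosis and normal liver for each tested probe of the 8 further lists (horizontal axis, log2 units, 1 point per probe, lists on the vertical axis), with called probes filled and named and the median of all tested probes as a dashed line. Lcn2 at 4.40 stands far to the right, and Slc30a10 at -2.49 is the lowest filled point. Slc30a10 passed the brightness filter only through the normal arrays, so its direction followed from the filter.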

How the data were processed

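Total RNA from 6 rat livers was measured on 6 arrays, all on 1 slide and in 1 scan. Per the file headers, Agilent Feature Extraction 11.5.1.1 wrote the deposited intensity values on a linear scale, with the background subtracted in the processed signal, and no normalization between arrays is recorded. On that slide the 3 normal livers and fibrosis array 1 lay in row 1, and fibrosis arrays 2 and 3 in row 2.

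Control spots were left out. Log2 processed signals were taken, each array's 75th percentile was subtracted, and spots of 1 probe were averaged over all 58717 spots of 30367 probes, with spots that the scanner software marked (18.8% to 35.2% per array) kept and 0 saturated. Only probes with at least 0.5 of their spots well above background on every array of a group were tested. Probes were named through the RefSeq gene table of GRCr8 (12012 stayed unnamed), from which no gene coordinates were taken. The promoters are from a separate RefSeq table of that build.

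The group comparison used lmFit and eBayes of limma 3.58.1 (R 4.3.3), first checked on simulated data, and p-values were adjusted by Benjamini-Hochberg across the 19731 probes tested. A gene was called if at least 1 probe was. From each list the text names called genes whose groups do not overlap, up to 3 in each direction, or the 2 with the smallest p where fewer than 2 were called. Heph, Tf, Hp, Cd163, Il6 and the second probes of called genes were added after their values were seen. The 10 genes and the lists were chosen with earlier results of these data known. Alternatives covered the scaling, normexp on the median signals with an offset of 50, marked spots, the filter, several probes per gene, limma's settings, slide row and leaving out each array.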

Additional observations from a re-analysis of the deposited data

How the results depend on the processing

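Several of the 21 alternatives run for each count moved the counts of calls, and 17 to 20 could be run for each probe. Over all probes, 3778 calls became 5774 with the array median (1890 higher, 3884 lower, against 2439 and 1339), 7217 with array weights, 1198 with slide row as a term and 1807 at an adjusted p under 0.01, and leaving out 1 array gave 1964 to 4471. Higher and lower calls were 2016 and 1417 with quantile normalization, 2941 and 326 with E1A probes and 2813 and 860 with the 75th percentile of detected probes. The 2 genes of the 10 became 0 with marked spots left out, where 5 genes were tested and Hamp was not. The count was also 0 with E1A probes, detected probes, no filter, slide row and an adjusted p under 0.01. It was 1 with quantile normalization and cyclic loess, 3 with the array median and normexp, 5 with array weights, and 0 to 3 without 1 array. The 16 genes of the 8 lists became 6 with marked spots left out, 34 with the array median, 10 with E1A probes, 9 with no filter, 41 with array weights, 3 with slide row, 4 at the stricter threshold, and 4 to 22 without 1 array. Signs turned for Mt1 with quantile normalization (0.15), cyclic loess (0.17) and E1A probes (0.023), and for Hfe's brighter probe with slide row (0.032). They also turned for Slc40a1's brighter probe with the array median (-0.20) and the mean of its probes (-0.061), for its other probe with E1A probes (0.071), and for Slc11a2's lower probe with the array median (-0.32) and without normal array 2 (-0.07) or fibrosis array 2 (-0.29), its values without 1 array running from -0.29 to 0.34. The cause of these changes was not tested. Signal over background kept Bmp6 and the second Tfrc probe out of the test. No paired analysis was possible because the animal numbers in the sample titles share fewer than 2 values between the groups (the replicate numbers used here were given in record order and pair nothing), and nothing ties a normal rat to a fibrotic one.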
